A study of Homo sapiens with 44 samples.

Results

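The 35 genes described here encode the enzymes of cholesterol and fatty acid synthesis and the proteins that control them. They were chosen by name from the 23368 gene rows of the count table, 17 for steps of sterol synthesis, 13 for the making, elongation, desaturation and activation of fatty acids, 4 as regulators of the SREBP transcription factors, and STARD4 for sterol transport. Their transcripts were measured by RNA sequencing in castration-resistant VCaP tumors grown in athymic nude mice, where VCaP is an established cell line from human prostate cancer. Every mouse had been castrated, and treatment started after serum PSA had returned to its level before castration. The arms were enzalutamide at 20 mg/kg/day (13 libraries used), ARN-509 at 20 mg/kg/day (15 libraries) and vehicle (15 libraries), each given by gavage for 4 weeks. All tumors came from 1 cell line, so the spread between libraries is that between tumors and not between patients. Age of the mice is not given in the sources used here.

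Cells make cholesterol from acetyl-CoA through mevalonate, farnesyl diphosphate, squalene and lanosterol, and fatty acids from acetyl-CoA through malonyl-CoA. When sterols are scarce in the endoplasmic reticulum, SCAP escorts the SREBP proteins to the Golgi, where they are cut, and the freed fragment switches on genes of both pathways at sterol regulatory elements. INSIG1 holds SCAP back when sterols are plentiful. In prostate cancer cells, androgen is known to raise transcripts of this programme, and both drugs are antagonists of the androgen receptor.

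The promoters of 4 members carry the comparison best, since TM7SF2 was the member that was higher under both drugs, FDPS had the smallest p among the members lower under ARN-509, and SREBF2 and INSIG1 stand for the control of the pathway. The sequences are the 250 bases before the annotated start in RefSeq (GRCh38.p14), at chr11:65111622-65111871 (TM7SF2), chr1:155308616-155308865 (FDPS), chr22:41832855-41833104 (SREBF2) and chr7:155297628-155297877 (INSIG1), all on the plus strand. Capitals mark the core of the sterol regulatory element (TCACNCCAC), the CCAAT box (CCAAT) bound by the cofactor NF-Y, and the E-box (CACGTG), on either strand.
TM7SF2: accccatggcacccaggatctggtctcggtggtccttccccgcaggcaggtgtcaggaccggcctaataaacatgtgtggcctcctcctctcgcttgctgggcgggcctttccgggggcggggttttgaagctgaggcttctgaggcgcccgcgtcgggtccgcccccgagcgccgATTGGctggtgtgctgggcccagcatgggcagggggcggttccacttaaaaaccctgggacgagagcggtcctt
FDPS: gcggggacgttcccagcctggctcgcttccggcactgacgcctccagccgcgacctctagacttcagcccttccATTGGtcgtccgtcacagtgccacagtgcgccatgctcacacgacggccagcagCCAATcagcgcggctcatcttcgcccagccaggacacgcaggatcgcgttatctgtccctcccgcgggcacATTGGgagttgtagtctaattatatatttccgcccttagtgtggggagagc
SREBF2: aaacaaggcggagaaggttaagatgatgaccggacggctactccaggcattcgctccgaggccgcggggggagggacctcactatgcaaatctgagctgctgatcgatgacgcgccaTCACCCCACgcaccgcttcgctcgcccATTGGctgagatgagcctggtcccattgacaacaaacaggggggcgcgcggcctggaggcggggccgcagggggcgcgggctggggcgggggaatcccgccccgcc
INSIG1: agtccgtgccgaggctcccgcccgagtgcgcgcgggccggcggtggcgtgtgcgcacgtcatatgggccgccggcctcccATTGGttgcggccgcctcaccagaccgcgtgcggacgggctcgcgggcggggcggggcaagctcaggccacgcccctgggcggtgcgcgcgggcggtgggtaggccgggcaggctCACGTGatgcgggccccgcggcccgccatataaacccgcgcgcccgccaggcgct

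In these windows the TM7SF2 promoter held a CCAAT box 74 bases before the start, and FDPS held CCAAT boxes 176, 122 and 51 bases before it. SREBF2 held the sterol regulatory element core 133 bases and a CCAAT box 106 bases before its start, and INSIG1 a CCAAT box 170 bases and an E-box 55 bases before its own. RefSeq windows of 300 bases, which reach 50 bases past the start, were found for 31 of the 35 members. The CCAAT box was present in 23 of these 31 (74.2%), against 34.6% of all 35116 promoter windows and 43.5% of the 9402 tested genes with a window. The exact sterol regulatory element core was present in 2 members, SREBF2 and ACSL1 (6.45%), against 1.13% of all windows and 1.41% of those of tested genes. The E-box was found in 5 members (16.1%), in 7.26% of all windows and in 12.6% of those of tested genes. The GC box (GGGCGG) was found in 29 members (93.5%), in 45% of all windows and in 77% of those of tested genes. The full palindrome of the androgen response element was found in 0 of the 31, in 0.00285% of all windows and in 0 of the tested genes. A pattern this rare cannot tell the members from the tested genes, so nothing is drawn from its count. A match describes letters in the window and is no measurement of binding.

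The libraries held 4.72 to 16.9 M counts (M for mega) in the enzalutamide arm, 3.38 to 30.1 M in the ARN-509 arm and 4.19 to 25.8 M in the vehicle arm. A further enzalutamide library, enzalutamide 4, held 80142 counts and was left out of everything below unless stated. Its log2 levels had a Pearson r of 0.447 with the rest of its arm across genes. Vehicle 8 (r = 0.889) and vehicle 10 (0.916) came next, and the counts of called members are also given without them. Levels are CPM, counts per M of the scaled total of the 13520 tested genes. Summed levels of cell type markers are instead counts per M of all counts of a library, without that scaling. All 35 members had enough counts to be tested. Every library held transcripts of prostate and VCaP markers, whose summed level over 8 genes was 5880 to 8446 CPM in enzalutamide tumors, 5374 to 7100 CPM in ARN-509 tumors and 5507 to 8339 CPM in vehicle tumors.

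In edgeR's test few members passed against vehicle under enzalutamide, while under ARN-509 most sterol enzymes and all 4 SREBP regulators passed as lower. With enzalutamide 1 member was higher and 5 were lower than with vehicle, and 29 did not pass edgeR's test. In the same comparison 5.10% of all tested genes passed as higher and 5.67% as lower (10.8% in all). With ARN-509 1 member was higher and 21 were lower, and 13 did not pass, whereas 14.7% of all tested genes passed as higher and 16.1% as lower (30.8% in all). The median log2 fold change of the members was -0.14 with enzalutamide, where that of all genes was -0.004, and -0.32 with ARN-509, where that of all genes was -0.0011. Negative values were found for 28 of 35 members (80.0%) with enzalutamide, against 50.9% of all genes, and for 32 of 35 (91.4%) with ARN-509, against 50.2% of all genes. The changes were small, from -0.64 to 0.68 on the log2 scale, and for each of the 35 members the ranges of the arms compared overlapped. Overlap was not counted over all tested genes, so it is not read as a trait of the members. Both comparisons use the same vehicle tumors, so their values are not independent. With the trend of each library with GC content and transcript length removed, a setting described below, 1 member was higher and 6 were lower with enzalutamide, and 1 was higher and 22 were lower with ARN-509. In tumor RNA, fewer cells of a type and less RNA per cell cannot be told apart.

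**Figure D1:**
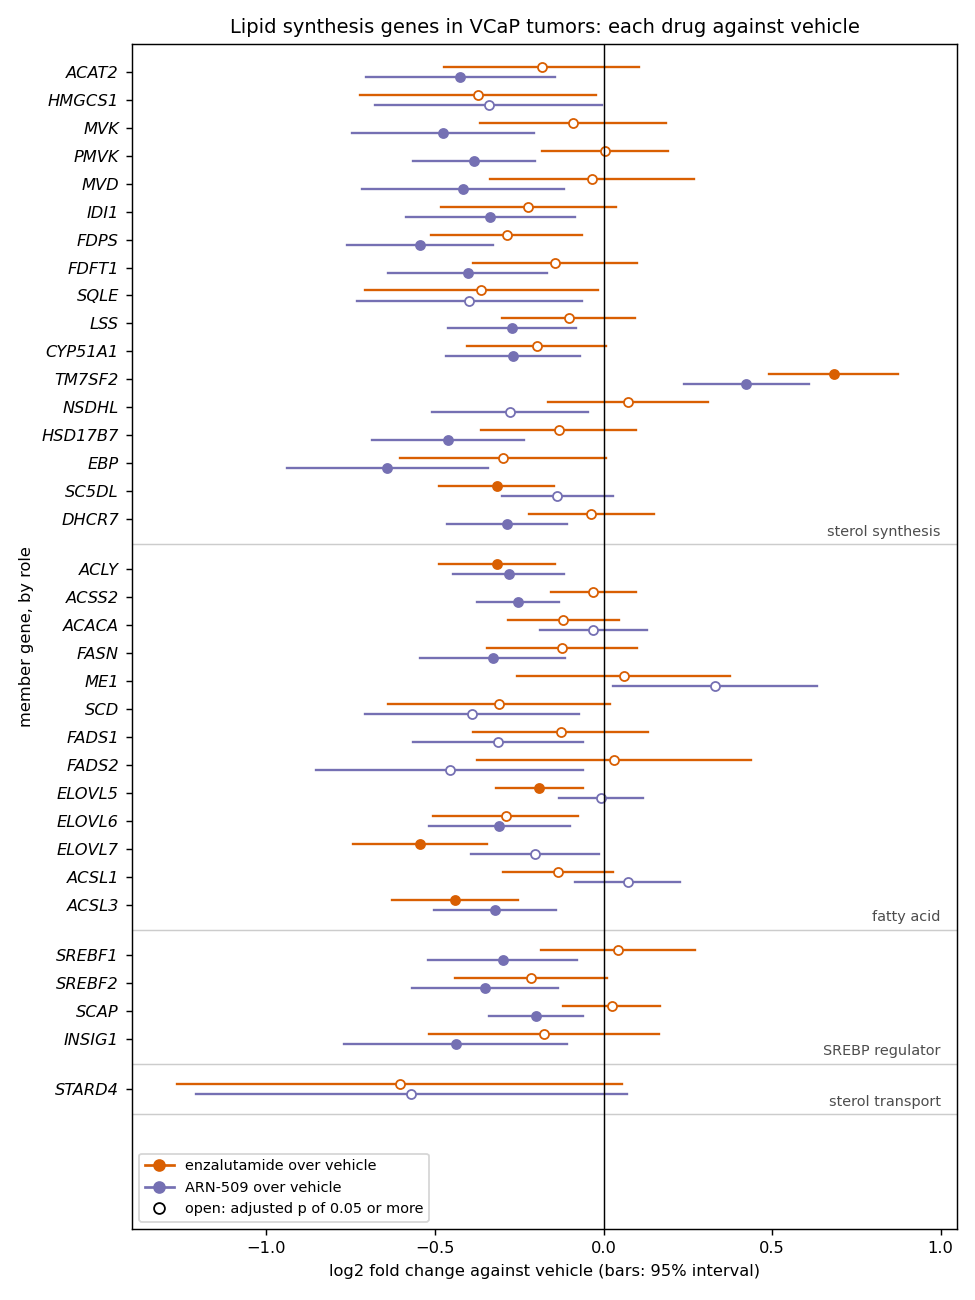
Log2 fold change against vehicle of each of the 35 member genes, ordered by role and step, with enzalutamide in orange above ARN-509 in purple (points, bars are 95% intervals, open points did not pass at an adjusted p of 0.05). TM7SF2 is the only filled point right of 0 in either colour, and 21 purple points but 5 orange points are filled to the left of it.

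TM7SF2 encodes the sterol C14-reductase, the enzyme that acts after CYP51A1 has removed a methyl group from lanosterol. Its level was 248 CPM in the lowest, 348 in the median and 437 in the highest enzalutamide tumor. In ARN-509 tumors the lowest, median and highest levels were 244, 291 and 359 CPM, and in vehicle tumors 136, 208 and 310 CPM. Every drug-treated tumor lay above the vehicle median, and 10 of 13 enzalutamide tumors and 3 of 15 ARN-509 tumors lay above the whole vehicle range. TM7SF2 rose 1.60-fold under enzalutamide (log2 0.68 ± 0.10, SE, adjusted p = 9.24e-07). It rose 1.34-fold under ARN-509 (log2 0.42 ± 0.09, adjusted p = 0.000612). These calls held in each of the 43 fits that left out 1 library, with log2 values from 0.64 to 0.72 for enzalutamide and from 0.38 to 0.47 for ARN-509. Levels can be compared between genes only per length, and TM7SF2 had the highest mean of the members at 166 CPM per kb of its longest annotated coding transcript, followed by FASN at 110 and PMVK at 102. In the annotation some exons of TM7SF2 are shared with its neighbour VPS51 (listed as C11orf2), so reads could be shared. C11orf2 averaged 652 CPM in enzalutamide tumors, 549 CPM in ARN-509 tumors and 608 CPM in vehicle tumors. Its log2 difference from vehicle was 0.10 ± 0.08 with enzalutamide (adjusted p = 0.474) and -0.15 ± 0.08 with ARN-509 (adjusted p = 0.128). Between the drugs C11orf2 was higher with enzalutamide by 0.25 ± 0.08 (adjusted p = 0.0194), close to the 0.26 ± 0.09 of TM7SF2 (adjusted p = 0.0383). The part of shared reads in these values was not tested.

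**Figure D2:**
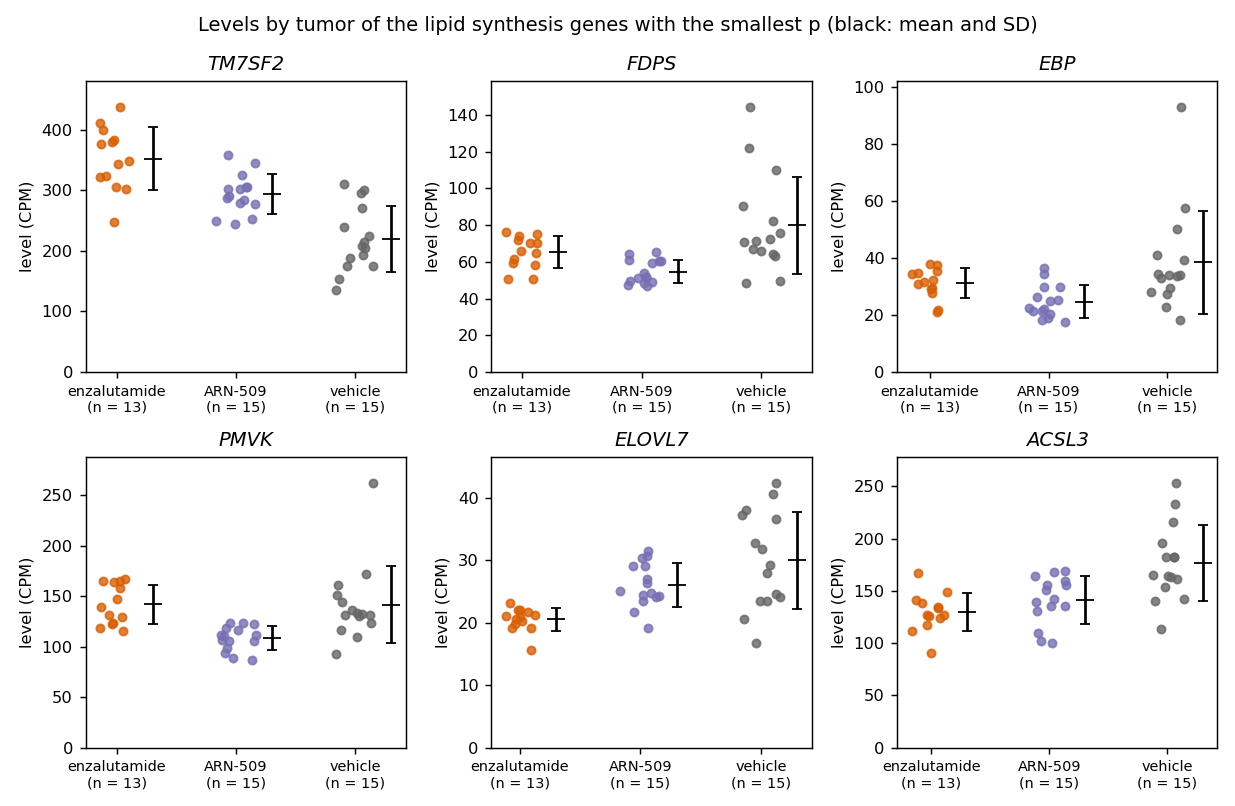
Level in CPM (y axis, from 0) of 6 members in each tumor, with 1 panel per gene and the arms enzalutamide, ARN-509 and vehicle from left to right; points are tumors, the black mark is the mean with its SD. TM7SF2 is lowest in vehicle tumors (median 208 CPM), whereas FDPS, EBP and PMVK are lowest in ARN-509 tumors and ELOVL7 and ACSL3 in enzalutamide tumors by their medians.

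The enzymes that lead to mevalonate and on to farnesyl diphosphate included 6 that fell under ARN-509, ACAT2, MVK, PMVK, MVD, IDI1 and FDPS, and the same 6 did not pass under enzalutamide in edgeR's test. FDPS makes farnesyl diphosphate, the branch point between sterols and protein prenylation. Its lowest, median and highest levels were 50.5, 65.7 and 76.2 CPM in enzalutamide tumors, 46.6, 51.8 and 65.1 CPM in ARN-509 tumors and 48.6, 71.1 and 144 CPM in vehicle tumors. All 15 ARN-509 tumors lay below the vehicle median, while the ranges overlapped. FDPS fell by 0.54 ± 0.11 on the log2 scale under ARN-509 (adjusted p = 0.000197), and its value under enzalutamide was -0.29 ± 0.11 (adjusted p = 0.0907). FDPS has 8 named pseudogenes, so its counts are uncertain where reads could be split.

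PMVK, the phosphomevalonate kinase, had the smallest p of the members between the drugs. Its lowest, median and highest levels were 116, 139 and 167 CPM in enzalutamide tumors, 87.1, 111 and 124 CPM in ARN-509 tumors and 92.4, 132 and 262 CPM in vehicle tumors. All 13 enzalutamide tumors lay above the ARN-509 median, and 9 of them above the whole ARN-509 range. PMVK fell by 0.38 ± 0.09 under ARN-509 (adjusted p = 0.00137), and under enzalutamide its log2 value was 0.00 ± 0.09 (95% interval -0.18 to 0.19, adjusted p = 0.989). Beside it MVK, the first of the mevalonate kinases, fell by 0.48 ± 0.13 under ARN-509, MVD, the decarboxylase, fell by 0.42 ± 0.15, ACAT2, a thiolase, fell by 0.42 ± 0.14 and IDI1, the isomerase, fell by 0.34 ± 0.12 (adjusted p = 0.00657, 0.0290, 0.0189 and 0.0360). The values of these 4 with enzalutamide lay between -0.22 (IDI1) and -0.03 (MVD), and their ARN-509 calls were lost in 1 to 9 of 43 fits that left out 1 library, other than that of MVK.

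HMGCS1 and SQLE did not pass under either drug in edgeR's test. HMGCS1, the cytosolic HMG-CoA synthase, had lowest, median and highest levels of 73.4, 107 and 223 CPM in enzalutamide tumors, 78.2, 119 and 204 CPM in ARN-509 tumors and 76.5, 140 and 324 CPM in vehicle tumors. SQLE, the squalene epoxidase, had 64.3, 79.8 and 148 CPM in enzalutamide tumors, 57.1, 87.9 and 146 CPM in ARN-509 tumors and 46.2, 114 and 214 CPM in vehicle tumors. For both, the medians were lower in either drug arm than in vehicle tumors, and the vehicle tumors alone spanned more than the drug arms. The log2 values of HMGCS1 were -0.37 ± 0.17 with enzalutamide (adjusted p = 0.173) and -0.34 ± 0.17 with ARN-509 (adjusted p = 0.112). Those of SQLE were -0.36 ± 0.17 with enzalutamide (adjusted p = 0.182) and -0.40 ± 0.17 with ARN-509 (adjusted p = 0.0606). Under ARN-509 SQLE was called lower by DESeq2 (adjusted p = 0.0453) and by voom (adjusted p = 0.0448), and HMGCS1 was called lower by edgeR once the GC content and length trend was removed (-0.45, adjusted p = 0.0494).

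Past squalene, EBP had the lowest log2 value of all members under ARN-509. EBP encodes the sterol isomerase that shifts a double bond in the sterol ring. Its lowest, median and highest levels were 21.3, 31.7 and 37.8 CPM in enzalutamide tumors, 17.6, 22.6 and 36.4 CPM in ARN-509 tumors and 18.4, 33.9 and 92.7 CPM in vehicle tumors. The highest value belonged to vehicle 8, and the ranges overlapped widely. EBP fell by 0.64 ± 0.15 under ARN-509 (adjusted p = 0.00118), or by 0.50 without vehicle 8 (adjusted p = 0.00281), and its value under enzalutamide was -0.30 ± 0.15 (adjusted p = 0.220). Under ARN-509 FDFT1, the squalene synthase, LSS, which closes the sterol rings, CYP51A1, the lanosterol demethylase, HSD17B7, a ketosteroid reductase, and DHCR7, which completes cholesterol, fell by 0.40, 0.27, 0.27, 0.46 and 0.29 (adjusted p from 0.00195 for HSD17B7 to 0.0341 for CYP51A1). NSDHL, a sterol dehydrogenase, had a log2 value of 0.07 with enzalutamide and of -0.28 with ARN-509 (adjusted p = 0.0608). In all, 12 of the 17 sterol synthesis members fell and 1 rose under ARN-509, where 16.1% of all tested genes were lower and 14.7% higher, and their median log2 value was -0.38. Under enzalutamide 1 of the 17 fell and 1 rose (5.88% each), near the 5.67% of all tested genes that were lower and the 5.10% that were higher, with a median of -0.14.

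The 1 sterol enzyme that fell under enzalutamide was SC5DL, the lathosterol desaturase. Its lowest, median and highest levels were 84.3, 108 and 145 CPM in enzalutamide tumors, 90.2, 120 and 161 CPM in ARN-509 tumors and 106, 133 and 181 CPM in vehicle tumors. Of the 13 enzalutamide tumors 6 lay below every vehicle tumor. SC5DL fell by 0.32 ± 0.08 under enzalutamide (adjusted p = 0.00945), and with ARN-509 its value was -0.14 ± 0.08 (adjusted p = 0.190).

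Among the fatty acid members, ACLY and ACSL3 were the 2 that fell under each drug against the shared vehicle tumors. ACLY makes cytosolic acetyl-CoA from citrate and so feeds both pathways. Its level was 178, 238 and 321 CPM in the lowest, median and highest enzalutamide tumor, 189, 237 and 320 CPM in ARN-509 tumors and 224, 291 and 415 CPM in vehicle tumors. ACLY fell by 0.32 ± 0.09 under enzalutamide (adjusted p = 0.0100) and by 0.28 ± 0.08 under ARN-509 (adjusted p = 0.00856), with medians in the drug arms that were nearly the same. ACSL3, which activates long-chain fatty acids on lipid droplets, had 90.9, 128 and 167 CPM in enzalutamide tumors, 100 to 169 CPM with a median of 142 in ARN-509 tumors, and 114, 165 and 253 CPM in vehicle tumors. It fell by 0.44 ± 0.09 under enzalutamide (adjusted p = 0.000797) and by 0.32 ± 0.09 under ARN-509 (adjusted p = 0.00591).

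Of the 3 elongase members, ELOVL5 and ELOVL7 passed as lower under enzalutamide and ELOVL6 under ARN-509 in edgeR's test. ELOVL7, an elongase of long saturated chains, had lowest, median and highest levels of 15.7, 20.9 and 23.2 CPM in enzalutamide tumors, 19.1, 25.0 and 31.5 CPM in ARN-509 tumors and 16.8, 29.2 and 42.3 CPM in vehicle tumors. All 13 enzalutamide tumors lay below the median of the ARN-509 tumors and below that of the vehicle tumors. ELOVL7 fell by 0.54 ± 0.10 under enzalutamide (adjusted p = 0.000103), and its value with ARN-509 was -0.20 ± 0.09 (adjusted p = 0.0955). Under ARN-509 it was called lower by voom (adjusted p = 0.0276) and not by DESeq2 (adjusted p = 0.0825). There edgeR called ELOVL7 with the GC content and length trend removed (-0.34, adjusted p = 0.000961) and without vehicle 8 (-0.26, adjusted p = 0.0272). ELOVL5, which extends polyunsaturated chains, fell by 0.19 ± 0.06 under enzalutamide (adjusted p = 0.0454), a call lost in 16 of 43 fits that left out 1 library (adjusted p up to 0.0907, without enzalutamide 9). With ARN-509 its log2 value was -0.01 ± 0.06. ELOVL6, which extends palmitate, fell by 0.31 ± 0.10 under ARN-509 (adjusted p = 0.0211). It had a value of -0.29 ± 0.11 with enzalutamide (adjusted p = 0.0741), where voom called it lower (adjusted p = 0.0302) and DESeq2 did not (adjusted p = 0.0544). Between the drugs ELOVL6 differed by 0.02 (adjusted p = 0.914).

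Of the core enzymes of fatty acid synthesis and desaturation, FASN passed under ARN-509 in edgeR's test and ACACA and SCD did not. FASN, the fatty acid synthase, had lowest, median and highest levels of 561, 995 and 1305 CPM in enzalutamide tumors, 450, 809 and 1099 CPM in ARN-509 tumors and 602, 1057 and 1305 CPM in vehicle tumors. It fell by 0.33 ± 0.11 under ARN-509 (adjusted p = 0.0169), and its value with enzalutamide was -0.12 ± 0.11 (adjusted p = 0.540). ACACA, the acetyl-CoA carboxylase, did not pass under either drug in edgeR's test. Its levels were 451, 559 and 689 CPM in enzalutamide tumors, 476, 588 and 785 CPM in ARN-509 tumors and 470, 636 and 749 CPM in vehicle tumors, with log2 values of -0.12 (95% interval -0.28 to 0.04) with enzalutamide and -0.03 (-0.19 to 0.13) with ARN-509. SCD, the stearoyl-CoA desaturase, had 232, 412 and 708 CPM in enzalutamide tumors, 232, 389 and 539 CPM in ARN-509 tumors and 262, 462 and 895 CPM in vehicle tumors. Its log2 values of -0.31 ± 0.16 with enzalutamide (adjusted p = 0.241) and -0.39 ± 0.16 with ARN-509 (adjusted p = 0.0545) did not pass in edgeR's test, while DESeq2 called SCD lower under ARN-509 (adjusted p = 0.0416), as did edgeR with the GC content and length trend removed (-0.47, adjusted p = 0.0321).

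ACSS2 makes acetyl-CoA from acetate. Its levels were 42.7, 51.6 and 65.9 CPM in enzalutamide tumors, 38.5, 43.3 and 55.2 CPM in ARN-509 tumors and 46.7, 53.6 and 63.0 CPM in vehicle tumors, and 9 of 15 ARN-509 tumors lay below every vehicle tumor. ACSS2 fell by 0.25 ± 0.06 under ARN-509 (adjusted p = 0.00165), and its value with enzalutamide was -0.03 ± 0.06 (adjusted p = 0.815). The other fatty acid members did not pass under either drug in edgeR's test. FADS1, the delta-5 desaturase, was called lower under ARN-509 by DESeq2 (-0.32, adjusted p = 0.0404), by voom (adjusted p = 0.0423), with DESeq2 size factors (adjusted p = 0.0484) and with the GC content and length trend removed (adjusted p = 0.0457). Among the others ME1, the malic enzyme that supplies NADPH, stood at 0.33 ± 0.15 with ARN-509 (adjusted p = 0.0859). The desaturase FADS2 spanned 48.2 to 100.2 CPM in enzalutamide tumors, 33.4 to 68.2 CPM in ARN-509 tumors and 17.4 to 206 CPM in vehicle tumors, with vehicle 8 the highest and the next at 102 CPM. Its log2 value with enzalutamide was 0.03 with vehicle 8 and 0.26 without it (adjusted p = 0.315), and with ARN-509 it was -0.46 (adjusted p = 0.0710) and -0.23 without it (adjusted p = 0.294). By count, 4 of the 13 fatty acid members (30.8%) fell under enzalutamide, where 5.67% of all tested genes were lower, and 5 (38.5%) under ARN-509, where 16.1% were. In edgeR's test 0 of the 13 rose under either drug, where 5.10% of all tested genes were higher with enzalutamide and 14.7% with ARN-509. With 13 genes, 0 is not far from these shares and is not read as a result about them. At an unadjusted p under 0.05, 0 were higher for enzalutamide and 1, ME1, for ARN-509. The share of all genes at that unadjusted threshold is not given here. DESeq2 also called 0 as higher, and voom called ME1 as higher under ARN-509.

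The 4 SREBP regulators all passed as lower under ARN-509 in edgeR's test, where 16.1% of all tested genes did. With the GC content and length trend removed, SREBF1 (-0.17, adjusted p = 0.119) and SCAP (-0.09, adjusted p = 0.0776) did not pass. Voom did not call INSIG1, and without vehicle 8 the calls of SREBF1, SCAP and INSIG1 were lost. Under enzalutamide 0 of the 4 passed in edgeR's test, where 10.8% of all tested genes passed in either direction. With 4 genes, 0 is near that share and is no result about the regulators. In that test 0 had an unadjusted p under 0.05, a threshold for which the share of all genes is not given here, and 0 passed with DESeq2 or voom. At an unadjusted p under 0.05 voom had 1 regulator lower. SREBF2, which encodes the SREBP that drives sterol genes, had lowest, median and highest levels of 143, 202 and 299 CPM in enzalutamide tumors, 125, 184 and 248 CPM in ARN-509 tumors and 154, 245 and 306 CPM in vehicle tumors. It fell by 0.35 ± 0.11 under ARN-509 (adjusted p = 0.0120), and its value with enzalutamide was -0.22 ± 0.11 (adjusted p = 0.230). SREBF1, which encodes the SREBP that drives fatty acid genes, had 73.5, 113 and 195 CPM in enzalutamide tumors, 44.1, 92.3 and 134 CPM in ARN-509 tumors and 82.4, 106 and 148 CPM in vehicle tumors. It fell by 0.30 ± 0.11 under ARN-509 (adjusted p = 0.0344), and its value with enzalutamide was 0.04 ± 0.11 (adjusted p = 0.862).

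SCAP had 149, 206 and 273 CPM in enzalutamide tumors, 126, 176 and 209 CPM in ARN-509 tumors and 171, 199 and 287 CPM in vehicle tumors. It fell by 0.20 ± 0.07 under ARN-509 (adjusted p = 0.0239), with a value of 0.02 ± 0.07 with enzalutamide. INSIG1, itself a target of SREBP, had 36.2, 56.3 and 116 CPM in enzalutamide tumors, 36.0, 49.8 and 77.1 CPM in ARN-509 tumors and 34.8, 62.1 and 152 CPM in vehicle tumors. Its fall of 0.44 ± 0.16 under ARN-509 (adjusted p = 0.0380) was lost in 12 of 43 fits that left out 1 library, with the highest adjusted p of 0.102 without vehicle 9. That of SREBF1 was lost in 8 fits (adjusted p up to 0.0638, without vehicle 8), and that of SCAP in 1 (0.0524, without vehicle 8). STARD4, a carrier of cholesterol between membranes, had only 2 to 81 counts per library, and its log2 values of -0.61 ± 0.33 with enzalutamide and -0.57 ± 0.32 with ARN-509 did not pass (adjusted p = 0.255 and 0.163).

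**Figure D3:**
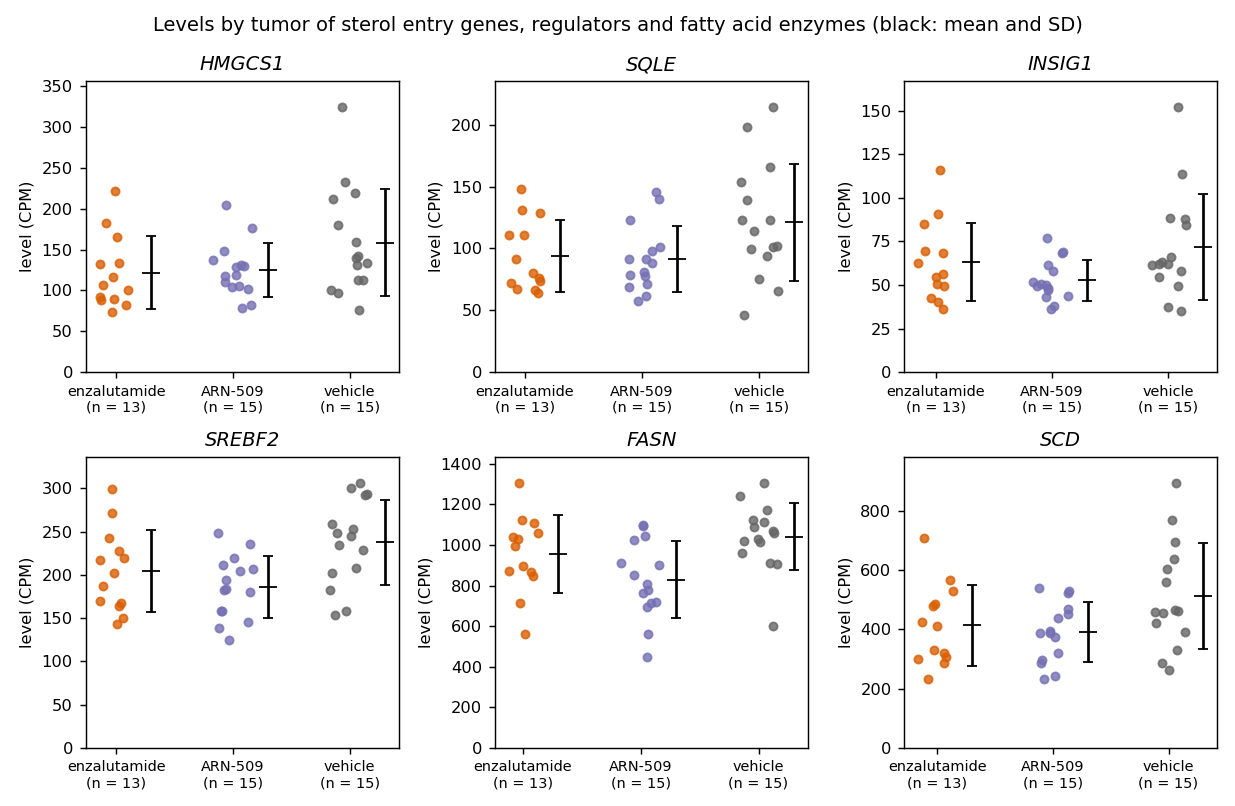
Level in CPM by tumor of members that anchor the pathways, with the arms enzalutamide, ARN-509 and vehicle from left to right in each panel; points are tumors and the black mark is the mean with its SD. The arms overlap in each panel, and for HMGCS1 the vehicle tumors reach from 76.5 to 324 CPM.

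Vehicle 8 and vehicle 10 stood at the ends of many member distributions. Vehicle 8 was the highest vehicle tumor for 14 of the 35 members, 11 of them for sterol synthesis, and vehicle 10 the lowest for 15. How often these 2 tumors were at an end over all tested genes was not counted, so this is not read as a trait of the members. Without vehicle 8, 14 members in place of 21 were lower under ARN-509, since ELOVL7 was gained and ACAT2, MVD, IDI1, LSS, CYP51A1, SREBF1, SCAP and INSIG1 were lost (their highest adjusted p over all fits that left out 1 library ran from 0.0508 for ACAT2 to 0.102 for INSIG1). Over all genes, calls in either direction also fell in that fit, from 4166 to 3261. Without vehicle 7, CYP51A1, INSIG1, IDI1, LSS, MVD and SREBF1 were lost, and without vehicle 9, CYP51A1, INSIG1, IDI1, SREBF1 and ELOVL6. The falls of the other 12, FDPS, EBP, PMVK, MVK, FDFT1, HSD17B7, DHCR7, ACSS2, ACSL3, ACLY, FASN and SREBF2, held in each of the 43 fits. Without both vehicle 8 and vehicle 10, 22 were lower under ARN-509 and 6 under enzalutamide, and TM7SF2 was the 1 that was higher under each. In that fit 4077 of all genes were called in either direction under ARN-509 and 1666 under enzalutamide, in place of 4166 and 1455. With library totals as the only scaling, 13 members were lower under ARN-509, where 4179 genes were called. With enzalutamide 4 kept in, 3 were lower under enzalutamide, where 1254 genes were called.

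At equal dose and duration the drugs formed 1 pair of compounds, which was tested directly. Both are diarylthiohydantoins, and ARN-509, also called apalutamide, carries a cyclobutane ring where enzalutamide carries methyl groups, and a pyridine in place of a benzene ring. In enzalutamide tumors 9 of the 35 members were higher and 2 lower than in ARN-509 tumors, whereas 12.2% of all tested genes passed as higher and 14.6% as lower (26.8% in all). The higher members were PMVK (0.39 ± 0.09, adjusted p = 0.00492), MVK, TM7SF2, NSDHL, HSD17B7 and DHCR7 of sterol synthesis, ACSS2 (0.22 ± 0.06, adjusted p = 0.0103), and the regulators SREBF1 (0.34 ± 0.11, adjusted p = 0.0238) and SCAP (0.23 ± 0.07, adjusted p = 0.0189). The lower members were the elongase genes ELOVL7 (-0.34 ± 0.10, adjusted p = 0.0121) and ELOVL5 (-0.18 ± 0.06, adjusted p = 0.0311). Leaving out 1 library ended the call of TM7SF2 between the drugs (0.26 ± 0.09, adjusted p = 0.0383) in 12 of 43 fits, that of DHCR7 in 11, MVK in 9, ELOVL5 in 3, HSD17B7 in 2 and SREBF1 in 1, with adjusted p of at most 0.0743. By role, the median log2 difference was 0.26 for sterol synthesis, -0.04 for fatty acid members and 0.24 for the regulators, against 0.01 for all tested genes. With the GC content and length trend removed these medians lay closer together, at 0.145, 0.095 and 0.12, against -0.001 for all tested genes.

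The other members did not differ past the threshold in edgeR's test, and their intervals bound the difference. DESeq2 called MVD as higher and ACSL1 as lower with enzalutamide as well (adjusted p = 0.0437 and 0.0419), and voom called MVD, FDPS, EBP, FDFT1, FASN and FADS2 as higher and ACSL1 as lower (adjusted p from 0.00504 to 0.0422). Without vehicle 8 edgeR called FADS2 as higher too (0.49, adjusted p = 0.0199). HMGCS1 differed by -0.03 on the log2 scale (95% interval -0.38 to 0.32), SQLE by 0.04 (-0.31 to 0.38) and ACLY by -0.04 (-0.21 to 0.14). FDPS differed by 0.26 (0.03 to 0.48, adjusted p = 0.0761) and EBP by 0.34 (0.04 to 0.65, adjusted p = 0.0847). SREBF2 differed by 0.14 (-0.09 to 0.36) and FASN by 0.21 (-0.02 to 0.43).

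The difference between the drugs moved with the GC content of the genes. The Spearman correlation between GC content and the log2 difference was 0.735 across the 35 members and 0.617 across the 13009 tested genes with a value. Genes of the same libraries are not independent. GC content had a median of 59.5% over the 9 members called higher with enzalutamide, and was 36.4% and 41.7% in the 2 lower ones. Once the linear trend of each library with GC content and transcript length was removed, 0 of the 35 members were called between the drugs by edgeR, whereas 3.34% of all genes passed as higher and 3.50% as lower (6.84% in all). At an unadjusted p under 0.05, 6 members were higher and 0 lower. The share of all genes at that unadjusted threshold is not given here, so this count cannot be set against it. PMVK then differed by 0.15 (adjusted p = 0.0789) and TM7SF2 by 0.02 (adjusted p = 0.914). The median over the 35 members was 0.12, beside 0.19 before the removal.

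**Figure D4:**
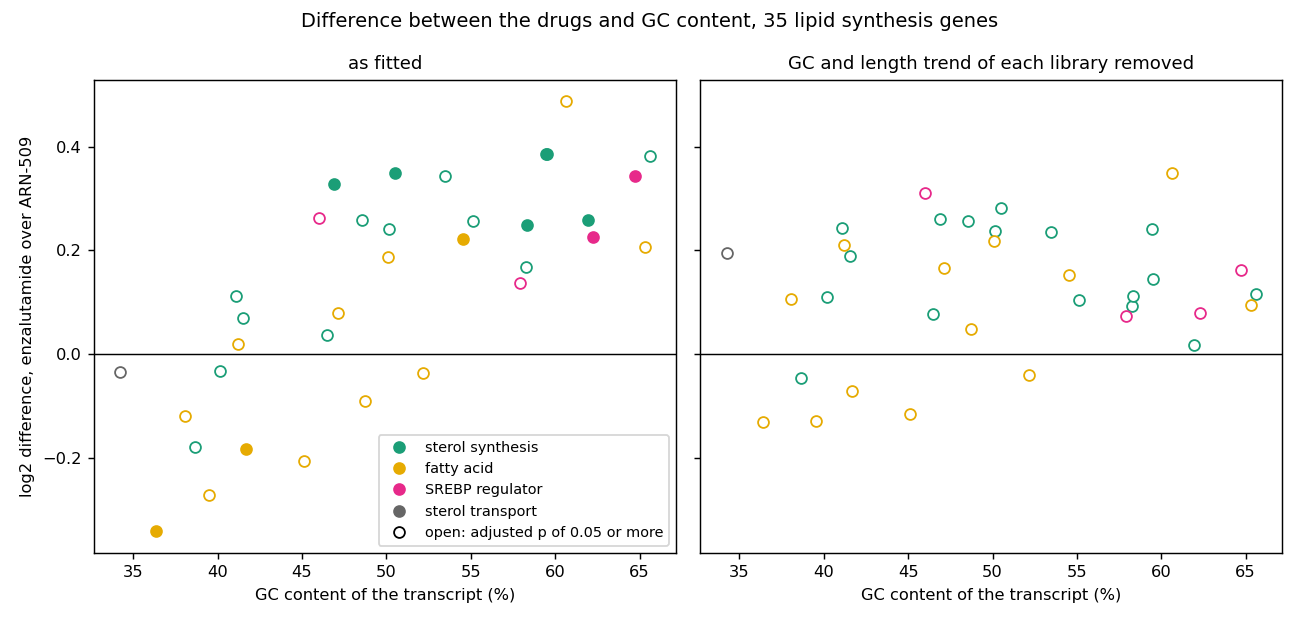
Log2 difference between enzalutamide and ARN-509 tumors (y axis) of the 35 members against the GC content of their transcripts in percent (x axis), before and after removal of the trend of each library with GC content and length. The Spearman correlation is 0.735 before the removal and 0.116 after it.

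Against vehicle the Spearman correlation of the members' log2 values with GC content was 0.672 for enzalutamide and -0.129 for ARN-509, where over all tested genes with a value it was 0.209 and -0.422. After the removal it was 0.577 and 0.438 in the members, and -0.008 and -0.03 over all these genes. The members' values under enzalutamide thus still moved with GC content. Those under ARN-509 moved with it only after the removal, at 0.438, and had a weak relation of the other sign before it, at -0.129. All further values of this paragraph are from edgeR with the GC content and length trend removed. TM7SF2 rose by 0.63 under enzalutamide (adjusted p = 1.29e-08) and by 0.61 under ARN-509 (adjusted p = 8.78e-09). TM7SF2 was the 1 member that was higher under each drug, where 7.14% of all genes were higher with enzalutamide and 13% with ARN-509. Under enzalutamide 6 members were lower, where 7.73% of all genes were (14.9% in either direction), and FDPS was among them at -0.30 (adjusted p = 0.0119). Under ARN-509 22 members were lower, where 15.0% of all genes were (28.1% in either direction), and 17 of the 22 had been called before. DHCR7, MVD, SCAP and SREBF1 were lost, and HMGCS1, SC5DL, SCD, FADS1 and ELOVL7 were gained. SREBF1 then stood at -0.17 (adjusted p = 0.119) and SCAP at -0.09 (adjusted p = 0.0776), so 2 of the 4 regulators, SREBF2 and INSIG1, were lower under ARN-509 with either treatment of the data.

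Within an arm the members varied together in some pairs and not in others. SQLE and INSIG1 tracked HMGCS1 from tumor to tumor. For INSIG1 and HMGCS1 the Pearson r of log2 levels was 0.921 in enzalutamide tumors (n = 13), 0.935 in ARN-509 tumors (n = 15) and 0.940 in vehicle tumors (n = 15), with Spearman values of 0.879 with enzalutamide and 0.921 in both other arms. The permutation p adjusted over 15 relations was 7.5e-05 for enzalutamide and 3.75e-05 for the other arms, whose unadjusted 1e-05 is the smallest that 100000 permutations can give. Without the 2 tumors farthest from the median of INSIG1, r was 0.832 with enzalutamide, 0.882 with ARN-509 and 0.900 with vehicle. For SQLE and HMGCS1 r was 0.863 in enzalutamide tumors (Spearman 0.742, adjusted permutation p = 0.000493), 0.923 in ARN-509 tumors (0.821, 3.75e-05) and 0.947 in vehicle tumors (0.957, 3.75e-05). Without the 2 farthest tumors it was 0.739 with enzalutamide, 0.850 with ARN-509 and 0.929 with vehicle. For IDI1 and HMGCS1 r was 0.754 in enzalutamide tumors (Spearman 0.808, adjusted permutation p = 0.00508), 0.714 in ARN-509 tumors (0.629, 0.00508) and 0.872 in vehicle tumors (0.857, 6e-05). Without the 2 farthest tumors it was 0.683 with enzalutamide, 0.632 with ARN-509 and 0.851 with vehicle. The adjusted p of the Spearman values of these 3 pairs lay between 5e-05 and 0.0236.

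For FASN no relation passed. For FASN and HMGCS1 r was 0.382 in enzalutamide tumors (Spearman 0.516, adjusted permutation p = 0.270), 0.117 in ARN-509 tumors (0.029, 0.676) and 0.432 in vehicle tumors (0.475, 0.163). Without the 2 farthest tumors r was 0.410 with enzalutamide, -0.137 with ARN-509 and 0.328 with vehicle. For FASN and SCD r was 0.279 in enzalutamide tumors (Spearman 0.467, adjusted permutation p = 0.451), 0.133 in ARN-509 tumors (0.125, 0.676) and 0.151 in vehicle tumors (0.343, 0.676). Without the 2 farthest tumors r was 0.587 with enzalutamide, -0.162 with ARN-509 and 0.343 with vehicle. The adjusted p of the Spearman values of these 2 pairs lay between 0.102 and 0.924. Some tumors had the highest level of their arm for several members, namely enzalutamide 8 for 14 members, ARN-509 11 for 16, vehicle 8 for 14 and vehicle 9 for 8. The same was not counted over all tested genes. HMGCS1, SQLE, INSIG1, SCD and ACLY were highest in enzalutamide 8, in ARN-509 11 and in vehicle 9, and none of these 5 in vehicle 8. Genes of 1 library share its depth and composition, and the part of these in the relations was not tested.

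**Figure D5:**
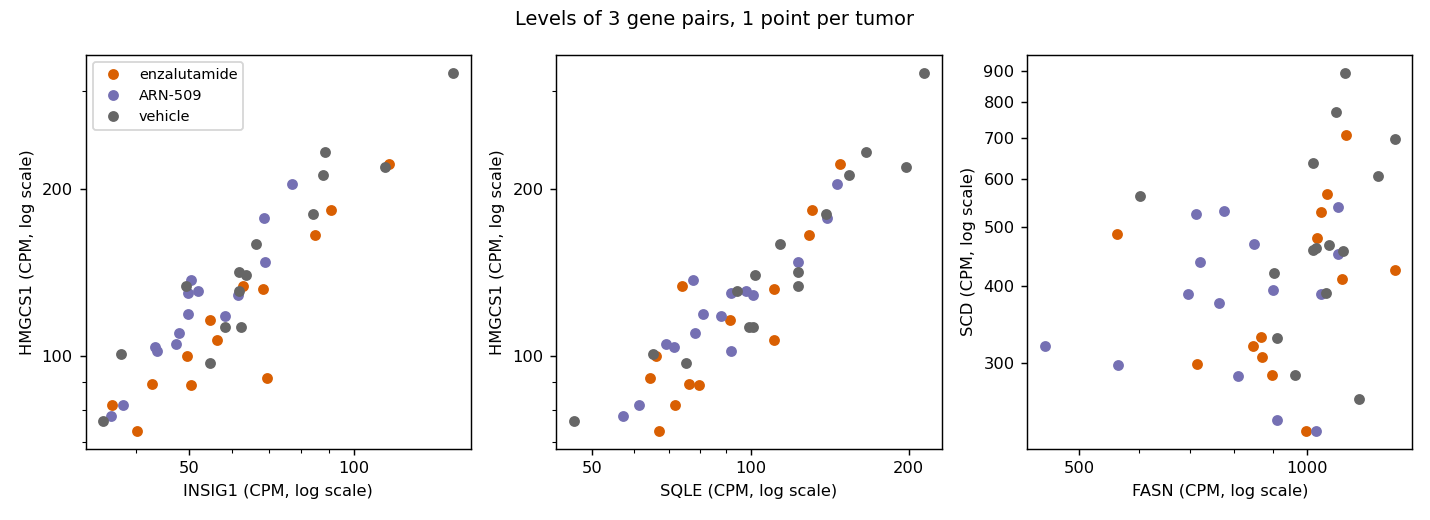
Levels in CPM of 3 pairs of members on log axes (HMGCS1 against INSIG1 and SQLE, SCD against FASN), 1 point per tumor, with enzalutamide in orange, ARN-509 in purple and vehicle in grey. SQLE and INSIG1 rise with HMGCS1 in every arm (Pearson r from 0.863 to 0.947), whereas FASN and SCD do not line up (0.133 to 0.279).

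The spread between tumors differed between arms. The coefficient of variation of a member had a median of 17.6% in enzalutamide tumors, 18.0% in ARN-509 tumors and 27.1% in vehicle tumors, or 23.1% without vehicle 8. In vehicle tumors it reached 66.5% for FADS2, 46.8% for EBP, 42.3% for INSIG1 and 41.3% for HMGCS1, beside 72.9% for the scarcely counted STARD4. Without vehicle 8 it was 40.9% for FADS2 and 29.7% for EBP, 42.3% for INSIG1 and 42.6% for HMGCS1.

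Of 40 further genes of the same pathways 39 could be tested. With enzalutamide 2 of them rose and 2 fell (5.13% each), near the 5.10% and 5.67% of all tested genes. With ARN-509 8 rose (20.5%, beside 14.7% of all tested genes) and 9 fell (23.1%, beside 16.1%). Between the drugs 6 had higher and 6 had lower levels in enzalutamide tumors (15.4% each), near the 12.2% and 14.6% of all tested genes. SCD5, a second stearoyl-CoA desaturase, had lowest, median and highest levels of 5.09, 7.43 and 9.17 CPM in enzalutamide tumors, 5.87, 8.38 and 13.2 CPM in ARN-509 tumors and 1.22, 3.37 and 6.27 CPM in vehicle tumors. It rose by 1.03 ± 0.17 under enzalutamide (adjusted p = 1.73e-05) and by 1.297 ± 0.16 under ARN-509 (adjusted p = 5.83e-08). ELOVL2, an elongase of polyunsaturated chains, fell by 1.03 ± 0.21 under enzalutamide (adjusted p = 0.000458) and by 0.97 ± 0.20 under ARN-509 (adjusted p = 0.000326).

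FADS3, a gene of the desaturase family, rose by 0.33 ± 0.09 under enzalutamide (adjusted p = 0.00737). ELOVL4, an elongase of very long chains, rose by 0.51 ± 0.11 under ARN-509 (adjusted p = 0.000325), and AACS, which activates acetoacetate, fell by 0.26 ± 0.05 (adjusted p = 0.000427). LBR, the lamin B receptor, has the same sterol C14-reductase activity as TM7SF2. It rose by 0.36 ± 0.08 under ARN-509 (adjusted p = 0.000842), its value with enzalutamide was 0.02 ± 0.08 (adjusted p = 0.901), and it was lower with enzalutamide than with ARN-509 by a log2 difference of -0.34 ± 0.08 (adjusted p = 0.00564). TECR, the reductase of the elongation cycle, was higher with enzalutamide by 0.32 ± 0.08 (adjusted p = 0.00564), NR1H2, a liver X receptor, by 0.29 ± 0.08 (adjusted p = 0.00785), and ACSL4 was lower by a log2 difference of -0.46 ± 0.13 (adjusted p = 0.0104). After removal of the GC content and length trend LBR (adjusted p = 0.0615), TECR (0.07, adjusted p = 0.507), NR1H2 (0.06, adjusted p = 0.546) and ACSL4 (adjusted p = 0.143) were not called between the drugs. The 3 of the 39 that were called then, all higher in enzalutamide tumors, were C14orf1 (0.28, adjusted p = 0.0259), ACAT1, the mitochondrial thiolase (0.20, adjusted p = 0.0262), and NPC2, a lysosomal carrier of cholesterol (0.39, adjusted p = 0.0253), where 3.34% of all genes passed as higher. These 3 are named by their count, after their values were seen.

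Markers of other cell types that make lipids were low. Adipocyte markers summed to 11.95 to 18.9 CPM in enzalutamide tumors, 11.04 to 22.6 CPM in ARN-509 tumors and 11.03 to 18.2 CPM in vehicle tumors. Of the 8, only PLIN1, PLIN4 and CFD had enough counts to be tested, and ADIPOQ was at 0 in 38 of the 43 libraries, CIDEC in 38, LEP in 32 and CIDEA in 42. Hepatocyte markers summed to 9.53 to 625 CPM in enzalutamide tumors, 11 to 17.2 CPM in ARN-509 tumors and 6.86 to 23.1 CPM in vehicle tumors, the highest being enzalutamide 2, in which ALB, the albumin gene, stood at 620.0 CPM and in no other tumor of its arm above 10.1 CPM. Without enzalutamide 2, 6 members were lower under enzalutamide and TM7SF2 was higher, where 1489 of all genes were called in either direction in place of 1455. Endothelial markers summed to 0.208 to 2.54 CPM in enzalutamide tumors, 0.213 to 1.62 CPM in ARN-509 tumors and 1.27 to 6.51 CPM in vehicle tumors, mainly from VWF. Fibroblast markers summed to 4.42 to 11.5 CPM in enzalutamide tumors, 4.41 to 17 CPM in ARN-509 tumors and 5.57 to 23.8 CPM in vehicle tumors. Leukocyte markers summed to 4.42 to 9.63 CPM in enzalutamide tumors, 4.60 to 11.6 CPM in ARN-509 tumors and 4.14 to 9.98 CPM in vehicle tumors. The part of endothelial and fibroblast transcripts in the results above was not tested.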

How the data were processed

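RNA of xenograft tumors was sequenced from TruSeq RNA v2 libraries, a kit that does not mark strand, and the authors deposited raw counts per gene for each tumor. The submitters' processing notes name the hg19 build, HTSeq 0.6.1, Picard 1.77, TopHat2 2.1.0 and bcl2fastq 1.8.4. How mouse reads were treated, which annotation served and how strand was set is not stated there, so mouse reads may stand in the counts. Named pseudogenes exist for 5 members and 16 members share exons with another gene in GENCODE 29, so their counts are uncertain.

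Columns were matched to tumors by the sample description, with 0 unmatched, and arms and numbers were taken from the titles. No columns within an arm were identical. Libraries were treated as tumors of separate mice, and p-values measure the spread between these tumors. Enzalutamide 4 was left out. Counts of 43 libraries were TMM-scaled, filtered with filterByExpr and tested in 1 fit with the edgeR 4.0.16 quasi-likelihood test (R 4.3.3, robust estimation, arm as the only term), with Benjamini-Hochberg adjustment over 13520 genes and a threshold of 0.05. Adjusted p-values are from this test unless stated. The SE is the absolute log2 fold change over the root of F, with 95% intervals from the t distribution. The fit was tested on simulated counts. Where a trend with GC content was put into the simulated ARN-509 arm, 2958 of 3144 calls against vehicle were genes not changed by design. After the trend was removed 7 of 189 calls were, so ARN-509 calls are given with and without that removal. The simulated trend was linear in GC content, the form that the removal takes out. Its success there was built in and does not show how well it serves the measured libraries. GC content and length came from GENCODE 29 (GRCh38) by symbol, for 13009 genes (96.2%), and were removed per library by offsets. Correlations used log2 CPM and 100000 two-sided permutations.

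The members and all lists were chosen with earlier results of these data known. Full values were given for the 4 members with the smallest p in each comparison and for HMGCS1, SQLE, FDPS, INSIG1, SREBF1, SREBF2, SCAP, FASN, SCD, ACACA and ELOVL7, with ACLY added after its values were seen because it fell under both drugs. Of the further genes at most 4 per comparison were named, and a gene that is counted among them is not reported here. Alternatives were scaling by DESeq2 size factors or by library totals, no filter or a stricter one (1 CPM in 13 libraries), no robust estimation, the replicate number as a block, DESeq2 1.42.0, limma 3.58.1 voom with quality weights, 2 arms only, the GC and length removal alone and with the block, libraries thinned to 3377450 counts, all 44 libraries, and leaving out each library; the fit without vehicle 8 and vehicle 10 was added after the data were seen.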

Additional observations from a re-analysis of the deposited data

How the results depend on the processing

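Of the member values under settings other than leaving out a library, 1344 kept their side of the threshold, 51 became called, 71 lost a call and 1 that was called changed sign. That was TM7SF2 between the drugs, at -0.0084 (adjusted p = 0.96) with a replicate block and the GC content and length trend removed. The cause was not tested here or below. For enzalutamide against vehicle, 3 members were lower with all 44 libraries, and voom called 2551 genes and thinned libraries 631, in place of 1455. For ARN-509 against vehicle, library totals gave 13 lower members, voom gave 2 higher ones, and thinning gave 2428 genes in place of 4166. Between the drugs, members higher with enzalutamide numbered 15 by voom, 14 with only the 2 arms fitted, 5 when thinned and 0 with the GC trend removed, with or without the block, in place of 9. Lower members numbered 1 with no filter, with the replicate block and when thinned, and 0 with the GC trend removed, with or without the block, in place of 2. Genes called between the drugs numbered 5718 by voom, 1981 when thinned, 890 with the GC trend removed and 982 with the block added to that, in place of 3623. Leaving out 1 library at a time gave 1 higher and 4 to 7 lower members and 1145 to 1794 genes for enzalutamide. For ARN-509 it gave 1 to 2 higher members (2 without vehicle 12), 14 (without vehicle 8) to 26 lower members and 3261 to 5045 genes. Between the drugs it gave 5 (without enzalutamide 1) to 13 higher members, 1 (without enzalutamide 7 or enzalutamide 9) to 3 lower members and 2680 to 4269 genes. In these fits 4337 member values kept their side, 79 became called, 99 lost a call and 0 called values changed sign. Values called in neither of the fits compared changed sign 60 times on leaving out a library (13 members, at most 0.0906 in size in the reported fit) and 31 times under the other settings (13 members, at most 0.118). The replicate numbers did not pair the tumors, since 15 of 41 same-numbered pairs had deviations correlated above 0.1 (range -0.446 to 0.677) and 5 of 43 libraries correlated best with their own number. With the replicate block 4 members were lower under enzalutamide and 21 under ARN-509, where 1197 and 4084 of all genes were called in either direction. Depth limits STARD4 most, with as few as 2 counts in a library.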
